A study of Bos indicus with 6 samples.

Results

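Heat shock proteins and their DNAJ partners were followed in the isthmus, the segment of the oviduct between the ampulla and the uterus, of 6 Nelore cows. Members were taken by gene symbol alone. They were the HSP70 and HSP110 genes, the HSP90A genes, the small heat shock proteins, the mitochondrial chaperonin pair HSPD1 and HSPE1, the TRiC/CCT ring with TCP1, the DNAJA, DNAJB and DNAJC genes and BAG1 to BAG6. The endoplasmic reticulum members HSPA5, HSPA13, DNAJB9, DNAJB11, DNAJC3 and DNAJC10 were left out. The rule took 79 of the 24616 rows of the table, and 70 of them passed the filter on low and variable values. The set is not purely cytosolic, since by textbook knowledge it also holds mitochondrial proteins (HSPA9, HSPD1, HSPE1, DNAJA3, DNAJC11, DNAJC15, DNAJC19, DNAJC30) and membrane proteins of the endoplasmic reticulum (DNAJB12, DNAJB14, DNAJC1, DNAJC16, DNAJC18, DNAJC25).

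The comparison was between 3 cows with a large ovulatory follicle and large corpus luteum (LF/LCL, cows 617, 79 and 527) and 3 with a small follicle and small corpus luteum (SF/SCL, cows 856, 489215 and 97). All were healthy and multiparous, and their ages are not given in the labels. After a first synchronization with GnRH and prostaglandin F2α, every cow received a progesterone device of 1 g and 2 mg of estradiol benzoate on day -10, prostaglandin F2α at device removal and again later, and GnRH on day 0. The LF/LCL cows had an extra dose of prostaglandin F2α on day -10, and their device came out 42 h before GnRH, against 30 h in the SF/SCL cows. Tissue of day 4 was sequenced from animals that the study had picked from the extremes of each group, not from all of its animals. Each cow gave 1 isthmus library, and the values below are normalized counts, that is, reads per gene divided by the size factor of the library. They carry no gene length and are compared between cows, never between genes.

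Heat shock proteins keep newly made and damaged proteins from clumping and help them to fold. HSP70 proteins bind exposed stretches of a client in a cycle driven by ATP. DNAJ proteins (HSP40) bring clients and start the hydrolysis of ATP, and HSP110 and several BAG proteins let the nucleotide go. HSP90 holds late folding states such as steroid hormone receptors, and the TRiC/CCT ring folds actin and tubulin. Small heat shock proteins hold unfolded proteins without ATP and are abundant in muscle, and in the oviduct HSP70 proteins on the epithelial surface are known to bind sperm.

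Libraries held 23899117 to 34193164 reads. SF/SCL cow 489215 stood apart from the other 5 cows: it had the highest value of the 6 libraries for 36.7% and the lowest for 35.7% of the 15387 genes tested, so that log2 fold changes discussed below are also given without it. The cow was picked out from these same values. Of all genes 0.0% passed an adjusted limma p of 0.05 with it and 18.2% without it. Adjusted p-values without it are therefore descriptive and do not test the groups. Markers of smooth muscle and ciliated epithelium were present in every cow, and their sums moved between cows. They mark cell types, and isthmus and ampulla were not compared. All 11 smooth muscle genes tested were lower on average in SF/SCL, 5 of them without overlap (8.6% of all genes were). Cows 856 and 97 were low for the list, while cow 489215 was above every LF/LCL cow for ACTA2, TAGLN, DES, CNN1 and SMTN and below every one for MYH11, MYLK, CALD1, SYNPO2 and SYNM. The sum, which ACTA2 and TAGLN weigh most, was 842805 to 960470 in the LF/LCL cows, 396324 and 455064 in cows 856 and 97, and 1287985 in cow 489215. The sum of 13 genes of ciliated epithelium was 21137 to 25434 in the LF/LCL cows, 49605 and 52760 in cows 856 and 97, and 15486 in cow 489215. This sum does not stand for each gene either. Cow 489215 was the lowest of the 6 cows for 6 of the 12 genes tested, but above every LF/LCL cow for DNAI1 and CCDC39. PIFO had 0 in every library. In whole-wall tissue fewer cells of a type and less RNA per cell cannot be told apart.

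None of the 70 members passed the limma threshold of an adjusted p of 0.05 over all genes tested, where 0.0% of all genes passed, and the lowest adjusted p of a member was 0.405. At an unadjusted p under 0.05 there were 8 members, all higher in SF/SCL, which is 11.4% of members. Of all genes 8.66% had such a p, 4.19% higher in SF/SCL and 4.48% higher in LF/LCL. They were HSPA8, HSPA1A, HSPH1 and HSPA4 of the HSP70 and HSP110 class, HSP90AA1, and the DNAJ genes DNAJA1, DNAJB1 and DNAJB2, and 7 of them, all but HSPA4, are on the list of differing isthmus genes that the study drew from these same libraries, so that they are not independent evidence. The count of 8 changed when 1 cow was left out. It was 3 without LF/LCL cow 79, 4 without LF/LCL cow 527 or SF/SCL cow 97, and 23 without cow 489215 (33.9% of all genes then). The share of all genes is given for the last only. A fit with 1 cow fewer has less power for every gene, so the lower counts cannot be laid to those cows. By edgeR on the recovered reads 11 members had an unadjusted p under 0.05 and 0 passed the adjusted threshold, beside 8.7% and 0.0% of all genes. By DESeq2 5 members passed the adjusted threshold (HSPA1A, HSPA8, HSP90AA1, DNAJA1 and DNAJB1), all higher in SF/SCL, beside 2.7% of all genes in either direction and 1.35% in that one, and 11 had an unadjusted p under 0.05 beside 11.5%. Of the 70 members, 51 had a log2 fold change above 0 (SF/SCL over LF/LCL), with a median of 0.16 beside -0.016 for all genes tested, and 11 were higher in all 3 SF/SCL cows than in any LF/LCL cow (9.51% of all genes were), while 3 were lower (8.6% of all genes).

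The main cytosolic HSP70 genes were higher in each SF/SCL cow. HSPA8 (ENSBTAG00000013162), the constitutive HSP70 that also strips clathrin from vesicles, had normalized counts of 55457, 50032 and 45379 in LF/LCL cows 617, 79 and 527 and of 71269.8, 85019.5 and 82854 in SF/SCL cows 856, 489215 and 97, the order of cows kept throughout. The lowest SF/SCL cow lay well above the highest LF/LCL cow, and cow 489215 was the highest of all. The means were 50289 ± 5044 and 79714.5 ± 7393 (SD, 3 cows each), a log2 fold change of 0.67 (SE 0.22, limma adjusted p = 0.463) that was 0.62 without cow 489215 (limma adjusted p = 0.0202). HSPA1A (ENSBTAG00000025441), the form induced by heat and other stress, had 9849, 8466 and 9808 against 23129, 12557 and 32000.5. All 3 SF/SCL cows were above the LF/LCL cows here too, but cow 489215 was near them and cows 856 and 97 far above. The means were 9375 ± 787 and 22562 ± 9734 (SD, 3 cows each), the log2 fold change was 1.17 (SE 0.35, limma adjusted p = 0.437), and without cow 489215 it was 1.54 (adjusted p = 0.00301). HSPA1A has a near-identical copy in mammals, so the split of its uniquely mapped reads is uncertain. The study also measured isthmus HSPA1A by quantitative PCR, in the same cows and in a larger set. It was higher on average in SF/SCL there, without a significant difference.

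Of the HSP110 genes, whose proteins drive nucleotide exchange on HSP70, HSPH1 and HSPA4 were likewise higher in every SF/SCL cow. HSPH1 (ENSBTAG00000005012), the inducible HSP110, had 8226, 6524 and 5247 in LF/LCL and 13593, 9845 and 13596 in SF/SCL, with no overlap and with cow 489215 lowest of its group. Its means were 6666 ± 1494 and 12345 ± 2165 (SD, 3 cows each) and its log2 fold change 0.90 (SE 0.24, limma adjusted p = 0.405), or 1.05 without cow 489215 (limma adjusted p = 0.0134). HSPA4 (ENSBTAG00000015683), a constitutive HSP110, had 11043, 9952 and 9191 against 12888.5, 14031 and 13741. The 3 SF/SCL cows were close together and above all LF/LCL cows, with means of 10062 ± 931 and 13554 ± 594 (SD, 3 cows each). The log2 fold change was 0.43 (SE 0.17, limma adjusted p = 0.554) and 0.41 without cow 489215 (limma adjusted p = 0.0424).

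Other members of the family followed a different pattern, high in cows 856 and 97 and not in cow 489215. HSPA4L, an HSP110 relative best known from testis, had 524, 494 and 608 in LF/LCL and 1628.5, 149 and 1582 in SF/SCL. Cows 856 and 97 were above every LF/LCL cow and cow 489215 was below every one, a mean ratio to LF/LCL of 2.96 for the pair and of 0.275 for cow 489215. The log2 fold change of 0.43 (SE 0.91, limma adjusted p = 0.924) was 1.57 without cow 489215 (limma adjusted p = 0.00234). HSPA6, another stress-inducible HSP70, had low counts of 69.1, 49.7 and 50.9 against 174, 57.2 and 195. Cow 489215 fell among the LF/LCL cows, and the log2 fold change of 1.15 (SE 0.53, limma adjusted p = 0.63) was 1.70 without it (adjusted p = 0.0108). HSPA1L, a constitutive gene of the same cluster as HSPA1A, had 141, 80.7 and 104 against 166, 116 and 157.

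HSPA12B, a distant HSP70 relative of endothelial cells, was the one tested member of the class that was lower in SF/SCL in every cow, with 985, 1135 and 1035 against 678, 925 and 717.5. Its log2 fold change was -0.45 (SE 0.20, limma adjusted p = 0.615) and -0.59 without cow 489215 (limma adjusted p = 0.0182). The summed endothelial markers were 14262 to 18279 in the LF/LCL cows and 11841, 17538 and 12358 in the SF/SCL cows, and their part in the HSPA12B difference was not tested. HSPA9 (mortalin), the HSP70 of mitochondria, had 7649, 6958 and 6496 against 6163, 9156 and 6351, and HSPA14, which works at the ribosome, had 969, 1027 and 895 against 921, 1657.5 and 1043. In both, cow 489215 was highest and the groups overlapped. HSPA12A was not tested because its mean over the 6 cows did not exceed its SD, with 153, 1020.3 and 192 against 128, 17.3 and 156.

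Of the pair of cytosolic HSP90 genes, the inducible HSP90AA1 (ENSBTAG00000006270) separated the groups. Its normalized counts were 45021, 43720.0 and 39595 in LF/LCL and 63985.5, 66655 and 65867 in SF/SCL. The 3 SF/SCL cows lay within a narrow band above all LF/LCL cows, cow 489215 among them. The means were 42779 ± 2833 and 65502 ± 1371.5 (SD, 3 cows each), and the log2 fold change of 0.62 (SE 0.20, limma adjusted p = 0.455) was 0.60 without cow 489215 (limma adjusted p = 0.0102). HSP90AB1, the constitutive form, had 3526, 3067 and 3475 against 4172, 3123 and 4987.5. Cows 856 and 97 were above the LF/LCL cows and cow 489215 among them, so that the log2 fold change was 0.26 (SE 0.22, limma adjusted p = 0.832, 95% interval -0.25 to 0.78) with it and 0.45 without it (adjusted p = 0.0438).

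Among the DNAJA and DNAJB genes, which include the main HSP40 partners of cytosolic HSP70, 3 of the 12 tested had an unadjusted p under 0.05, all higher in SF/SCL (8.66% of all genes in either direction, 4.19% in that one). DNAJA1 (ENSBTAG00000016265), an HSP40 with a farnesyl anchor, had 704, 642 and 534 against 979, 1122 and 1782. Every SF/SCL cow was above every LF/LCL cow and cow 97 was highest, with means of 627 ± 86.2 and 1294 ± 428 (SD, 3 cows each), a log2 fold change of 1.01 (SE 0.28, limma adjusted p = 0.412) and one of 1.08 without cow 489215 (limma adjusted p = 0.0355). DNAJB1 (ENSBTAG00000016874), the stress-inducible HSP40, had 3590.0, 3536 and 3558 against 4821, 5331 and 5822. The LF/LCL cows were almost equal and all SF/SCL cows higher, 3561 ± 27.3 and 5325 ± 500.5 (SD, 3 cows each). Its log2 fold change of 0.58 (SE 0.16, limma adjusted p = 0.405) was 0.57 without cow 489215 (limma adjusted p = 0.0155). DNAJB2 (ENSBTAG00000013782), which carries ubiquitinated clients to the proteasome, had 1492.5, 1407 and 1497 against 1932, 2006 and 1867, and the groups did not overlap. The means were 1465 ± 50.6 and 1935 ± 69.6 (SD, 3 cows each) and the log2 fold change 0.40 (SE 0.15, limma adjusted p = 0.525), or 0.37 without cow 489215 (limma adjusted p = 0.0335).

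**Figure D1:**
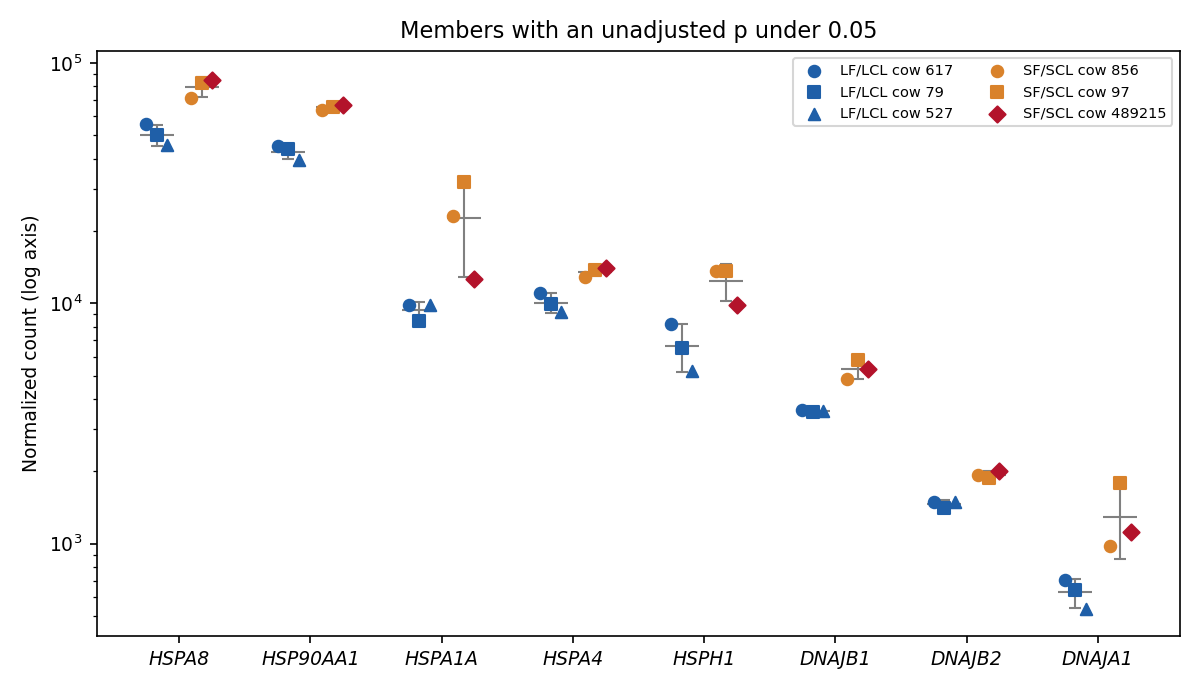
Normalized counts (log axis) of the 8 members with an unadjusted limma p under 0.05, 1 point per cow, with the mean and SD (n = 3) of each group in grey. In every gene the 3 SF/SCL cows lie above the 3 LF/LCL cows, and cow 489215 (diamond) is the lowest SF/SCL cow for HSPA1A (12557) and HSPH1 (9845).

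DNAJA4, a further HSP40 of the type A class, had 1354, 1278 and 1406 against 2865, 731 and 3833, which put cows 856 and 97 above and cow 489215 below the LF/LCL cows. Its log2 fold change was 0.57 (SE 0.60, limma adjusted p = 0.864) and 1.3 without cow 489215 (limma adjusted p = 0.00353). DNAJA2 (1934, 1864 and 1884 against 1787, 2846.5 and 1793), a general HSP40, and DNAJA3 (1849, 1460 and 1361 against 1404, 2374 and 1462), its mitochondrial relative, were highest in cow 489215 and otherwise overlapped or lay slightly lower in SF/SCL. DNAJB13, a protein of the radial spokes of sperm tails and cilia, had 907.5, 545 and 422 against 820, 852 and 1232, overlapping groups with a log2 fold change of 0.68 (SE 0.34, limma adjusted p = 0.65, and 0.76 without cow 489215). DNAJB6, which suppresses aggregates of polyglutamine proteins, had 3790, 3189 and 2981 against 3338, 4977 and 3588, while DNAJB14 and DNAJB12, anchored in the endoplasmic reticulum, were above the LF/LCL cows in cows 856 and 97 and lowest in cow 489215 at 248 and 670. DNAJB4 overlapped between the groups, and DNAJB5 had 323, 255 and 292.5 against 173, 278 and 199. The testis genes DNAJB3 and DNAJB8 had 0 reads in every library, a count that leaves room for 3 reads, and DNAJB7 had 1 read in cow 79.

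The DNAJC genes are a mixed class that ties HSP70 to particular places in the cell. None of the 24 tested had an unadjusted p under 0.05 by limma (8.66% of all genes did), by edgeR 0 passed either threshold, and by DESeq2 0 passed the adjusted one; 16 of the 24 log2 fold changes were above 0, with a median of 0.13. DNAJC21, a factor of ribosome assembly, had 986, 740 and 820 against 1021, 1321 and 1061, and DNAJC1, of the endoplasmic reticulum membrane, had 952, 927 and 859 against 1076, 1089 and 1285. In both all SF/SCL cows were above the LF/LCL cows, with log2 fold changes of 0.42 (SE 0.21, limma adjusted p = 0.65) and 0.33 (SE 0.18, limma adjusted p = 0.69) that were 0.30 and 0.37 without cow 489215. DNAJC16 was another gene of that kind, with a small log2 difference of 0.14 (SE 0.15, and 0.12 without cow 489215). DNAJC15, which sits at the inner mitochondrial membrane, was lower in all SF/SCL cows, 626, 265 and 327 against 225, 230 and 259, with a log2 fold change of -0.67 (SE 0.36, limma adjusted p = 0.69, and -0.65 without cow 489215).

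DNAJC5, the cysteine string protein of secretory vesicles, had 459, 430 and 369 in LF/LCL and 512, 98.5 and 440 in SF/SCL. Cow 489215 alone was low, at 0.235 of the LF/LCL mean, and the log2 fold change of -0.57 became 0.18 without it. DNAJC14 and DNAJC13, the members of the class with the highest means over the 6 cows, had log2 fold changes of -0.02 (95% intervals -0.42 to 0.39 and -0.37 to 0.34; -0.10 and 0.02 without cow 489215) and ranged from 2773 to 3435 and from 2693 to 3060. The remaining tested DNAJC genes overlapped between the groups or were split by cow 489215, which was highest for 13 of the 24, among them the spliceosome protein DNAJC8 at 1828 (860 to 1118 in the other cows). DNAJC5B and DNAJC5G had 0 reads in every library.

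The TRiC/CCT ring showed no separation of the groups. None of its 9 tested rows had an unadjusted p under 0.05 by limma or edgeR, and the lowest adjusted limma p was 0.832. TCP1 (6439, 6018 and 4794 against 5220, 11422 and 5212), CCT3 (9442, 8144 and 7797 against 6721.5, 13021 and 7056) and CCT8 (2294, 2352 and 2111 against 1929, 4131 and 2055), all subunits of the ring, were about the same in cows 856 and 97 and in the LF/LCL cows or a little lower, and markedly higher in cow 489215. The same held for CCT2 (9646 in cow 489215, 5309 to 6651.5 in the others), CCT4 (8535 and 5428 to 6538.5), CCT5 (7465 and 3671.5 to 4789.5) and CCT7 (9129 and 4933 to 6196). CCT6A, whose range was 2308 to 3095, and its low-count paralog CCT6B, 60.7 to 118.5, were the exceptions, since cow 489215 was not the highest there. Over the class 8 of 9 log2 fold changes were above 0 with a median of 0.17, and without cow 489215 only 3 of 9 were, with a median of -0.10. The testis paralog CCT8L2 was not tested, with 0 to 6 reads in a library.

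In the mitochondrial chaperonin, HSPE1 (HSP10), the lid, had 3684, 3450 and 3198 in LF/LCL and 2456, 8794 and 2859 in SF/SCL. Cows 856 and 97 were below every LF/LCL cow and cow 489215 was 2.55 times the LF/LCL mean. The log2 fold change was 0.20 (SE 0.48, limma adjusted p = 0.937) with cow 489215 and -0.38 without it (adjusted p = 0.0592). HSPD1 (HSP60), the barrel, had 2046, 1917 and 1796 against 1763, 2376.5 and 1863, a much smaller excess in the same cow. HSPE1 is a short gene with processed copies in mammalian genomes, so its count of uniquely mapped reads is less certain.

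Among the small heat shock proteins, 4 of the 5 tested were highest in cow 489215 and none had an unadjusted p under 0.05 by limma, while edgeR gave 1 such gene and no adjusted call. HSPB1 (HSP27), which binds actin filaments, had 31715, 28186 and 19500.0 against 18262, 66062 and 19619.5. HSPB6 (HSP20), a substrate of cyclic nucleotide kinases in relaxing smooth muscle, had 12480, 9360 and 11446 against 5787, 23831 and 8924. In both genes cows 856 and 97 were near or below the lowest LF/LCL cow and cow 489215 was above every LF/LCL cow, with log2 fold changes of 0.15 (SE 0.53) and -0.04 (SE 0.51) that were -0.45 and -0.62 without it.

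HSPB8, which works with BAG3 to send damaged filament proteins to autophagy, had 7521, 6952 and 8350 against 7909, 18944 and 13730. Here cow 97 was high together with cow 489215, cow 856 overlapped with LF/LCL, and the log2 fold change was 0.75 (SE 0.33, limma adjusted p = 0.615) and 0.46 without cow 489215 (limma adjusted p = 0.208). HSPB7, best known from heart and other muscle, had 894, 1398.5 and 620 against 353, 852 and 360. Cows 856 and 97 were below all LF/LCL cows and cow 489215 was among them, so that the log2 fold change of -0.95 (SE 0.46, limma adjusted p = 0.647) was -1.36 without cow 489215 (limma adjusted p = 0.0319). HSPB2 (264, 128 and 180 against 209, 497 and 267) was highest in cow 489215 too. Its neighbour in the RefSeq gene order, CRYAB (αB-crystallin, also a small heat shock protein), had 902, 557.5 and 403 against 593, 2254 and 1140, and reads of neighbouring genes cannot be told apart without the strand, whose use in counting is not given. HSPB3 (1 read in cow 527) and HSPB9 (0 to 2 reads in a library) were not tested.

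Several BAG proteins hold a nucleotide exchange domain that frees clients from HSP70. BAG2, an inhibitor of the ubiquitin ligase that works with HSP70, had 8667, 10060.1 and 7434 against 5075.5, 14341 and 3201.5, with cows 856 and 97 below and cow 489215 above all LF/LCL cows. The log2 fold change was -0.49 (SE 0.53, limma adjusted p = 0.868) and -1.10 without cow 489215 (limma adjusted p = 0.0195). BAG3, the partner of HSPB8, had 3516, 3296 and 3213 against 2927, 5805 and 3334, and BAG1 had 2874, 2486 and 2573 against 2128, 3999 and 2060.2, again highest in cow 489215. BAG5 was lower in all SF/SCL cows, 1788, 1811.5 and 1739 against 1568, 1085 and 1664, with a log2 fold change of -0.33 (SE 0.21, limma adjusted p = 0.758) and of -0.14 without cow 489215. BAG4 ranged from 640 to 950 with overlapping groups. BAG6, which guards proteins that missed their membrane, kept to 6348 to 6916 in all 6 cows with a log2 fold change of 0.05 (95% interval -0.31 to 0.42, and 0.05 without cow 489215).

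**Figure D2:**
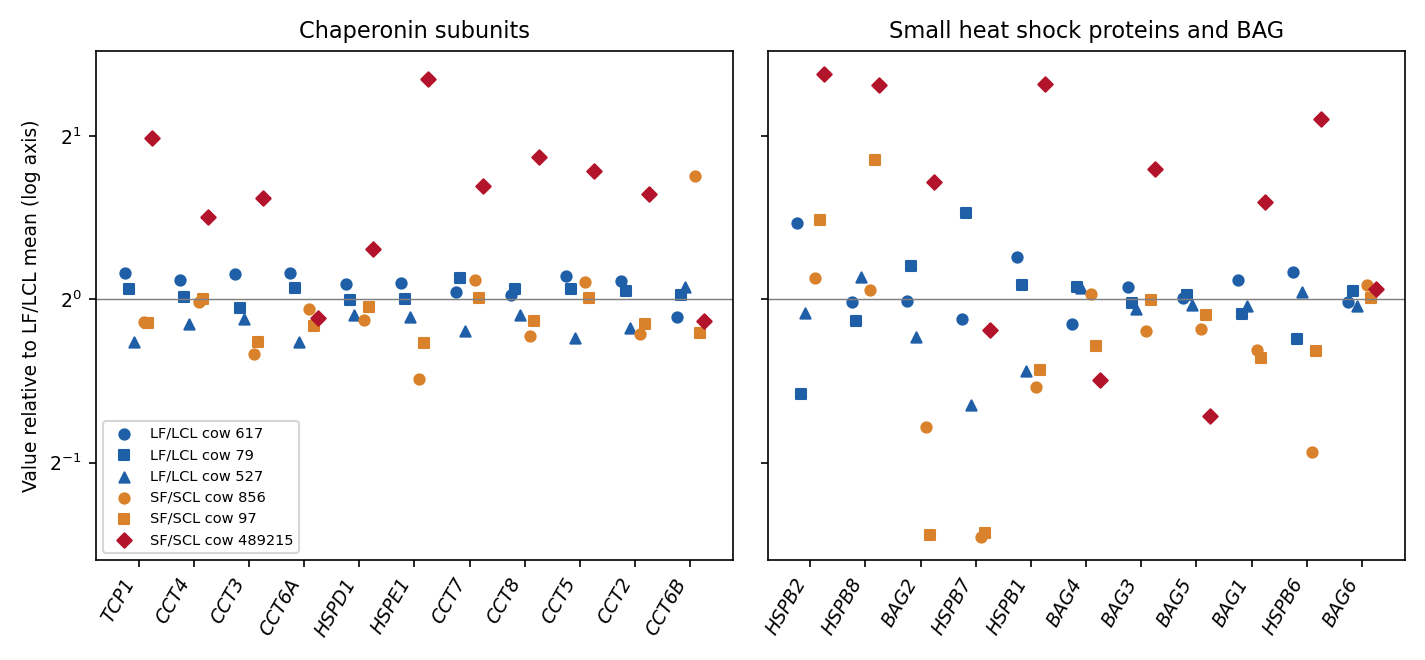
Value of each chaperonin subunit, small heat shock protein and BAG gene tested in each cow, divided by the mean of the 3 LF/LCL cows (log axis, 1 point per cow). Cow 489215 (diamond) is the highest of the 6 for most of these genes, at 2.55 times the LF/LCL mean for HSPE1, while cows 856 and 97 are at or below the LF/LCL cows for HSPB7, BAG2 and HSPE1.

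The members thus fell into different places relative to the LF/LCL cows. In 11 members (15.7%, beside 9.51% of all genes tested) all 3 SF/SCL cows were above the LF/LCL range, and these were the 8 named above with DNAJC1, DNAJC16 and DNAJC21. In 5 (7.14%, beside 14.0% of all genes) cows 856 and 97 were above and cow 489215 below it: HSPA4L, DNAJA4, DNAJB12, DNAJB14 and DNAJC9. In 11 others (15.7%, beside 12.8%) cows 856 and 97 were below and cow 489215 above, among them HSPE1, HSPB6, BAG1, BAG2, CCT3 and CCT8, and in 23 (32.9%, beside 20.2%) cow 489215 was above while cows 856 and 97 were neither both above nor both below. Cow 489215 was the highest of the 6 cows for 38 members (54.3%, beside 36.7% of all genes) and the lowest for 10.

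Without cow 489215, 15 of the 70 members passed the adjusted threshold (21.4%, beside 18.2% of all genes), 12 of them higher in SF/SCL (10.3% of all genes were) and 3 lower (7.92%). That cow was picked out from these same values, so these counts do not test the groups. The 12 were the 8 members named above with HSP90AB1, HSPA6, HSPA4L and DNAJA4, and the 3 were HSPA12B, HSPB7 and BAG2. By class they were 7 of 10 HSP70 and HSP110 genes, both HSP90 genes, 2 of 4 DNAJA, 2 of 8 DNAJB, 0 of 24 DNAJC, 0 of 9 TRiC/CCT, 0 of 2 mitochondrial chaperonin, 1 of 5 small heat shock protein and 1 of 6 BAG genes. The median log2 fold change of the members was then 0.04 beside -0.001 for all genes, and 19 members had the opposite sign from that with all 6 cows.

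**Figure D3:**
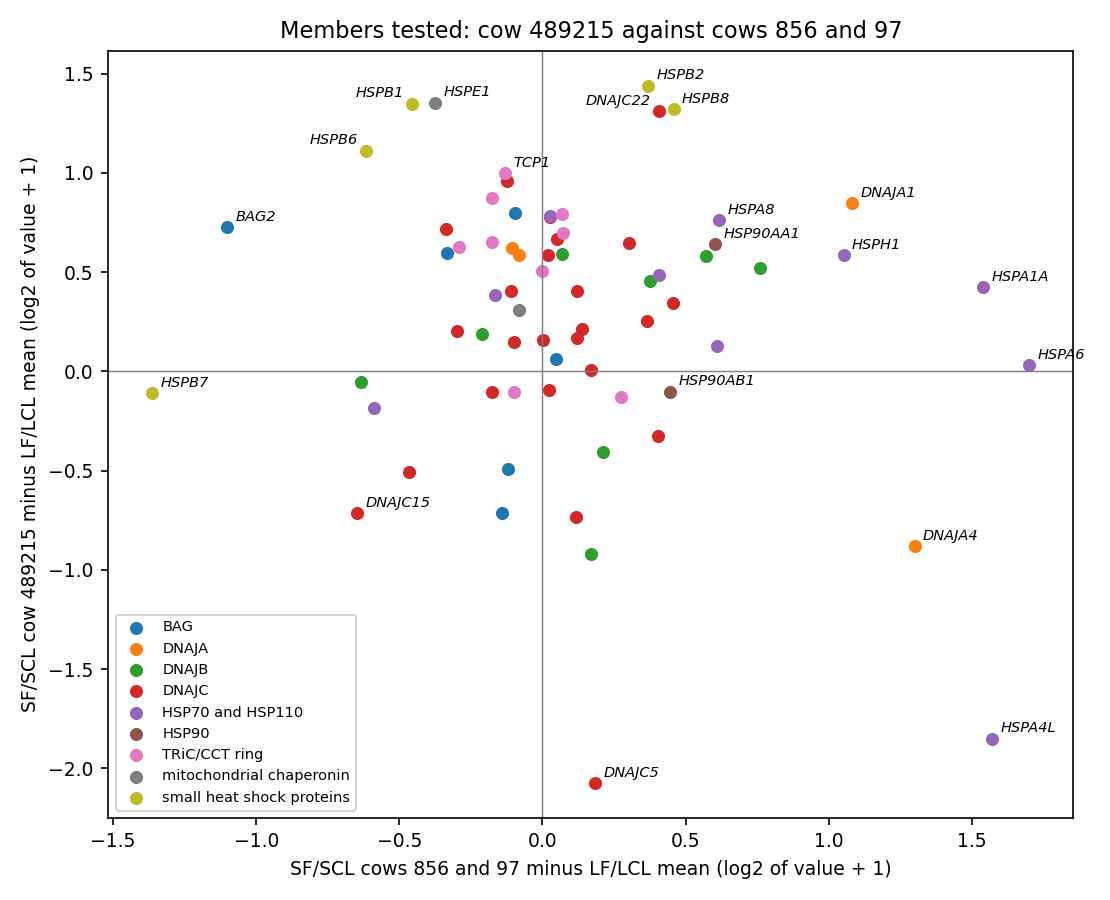
Log2 difference from the LF/LCL mean for the 70 tested members, with the mean of SF/SCL cows 856 and 97 on the x axis and SF/SCL cow 489215 on the y axis (log2 of normalized count plus 1), coloured by class. HSPA8, HSP90AA1, HSPH1, DNAJA1 and HSPA1A lie at the upper right, HSPA4L (1.57 and -1.85) and DNAJA4 at the lower right, and HSPE1, HSPB1, HSPB6 and BAG2 (-1.10 and 0.73) at the upper left.

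Co-chaperones and regulators that work with these families were read from a list of 46 genes, of which 44 were tested. Of these 32 had a log2 fold change above 0, with a median of 0.18, and 3 had an unadjusted p under 0.05 by limma (6.82%, beside 8.66% of all genes), 1 higher and 2 lower in SF/SCL. This count was 1 without any 1 of the LF/LCL cows and 14 without cow 489215, where 33.9% of all genes had such a p. The rise to 14 is thus not particular to the partner genes. With all cows 0 of the 44 passed the adjusted threshold by limma, edgeR or DESeq2, beside 0.0%, 0.0% and 2.7% of all genes. CDC37L1, a relative of the kinase co-chaperone of HSP90, had 1290.5, 1211 and 1210.4 against 2951, 1631 and 2290.0, all SF/SCL cows higher, a log2 fold change of 0.85 (SE 0.25, limma adjusted p = 0.421) and of 1.07 without cow 489215 (limma adjusted p = 0.00464). SGTB, a co-chaperone of HSP70, had low counts of 57.6, 56.3 and 38.6 against 19.7, 5.3 and 29.3 (log2 fold change -1.69, limma adjusted p = 0.531, and -1.03 without cow 489215).

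Partners of HSP90 that reach steroid receptors were mostly highest in cow 489215. PTGES3 (p23), which stabilises the closed HSP90, had 12900.1, 11575 and 10857 against 14703, 22267 and 14682, and AHSA1, which speeds its ATP hydrolysis, had 4058, 3856 and 3526 against 4438, 6766 and 4601. In both genes all SF/SCL cows were above the LF/LCL cows, with log2 fold changes of 0.52 (SE 0.23, limma adjusted p = 0.611) and 0.44 (SE 0.21, limma adjusted p = 0.647) that were 0.32 and 0.25 without cow 489215. The receptor immunophilins FKBP4 (14070.2, 13730.1 and 15449 against 11781, 25638 and 15971.5) and FKBP5 (20779, 21990.0 and 21741 against 23870.5, 31957 and 14964) overlapped between the groups. PFDN5, a subunit of prefoldin, which hands actin and tubulin to the TRiC/CCT ring, had 4917, 4950.3 and 5161 against 6364.5, 9876 and 5656, without overlap (log2 fold change 0.50, SE 0.24, limma adjusted p = 0.647, and 0.26 without cow 489215).

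HSF1, the transcription factor that switches on heat shock genes and is itself regulated mainly as a protein, had 1686, 1625 and 1545 against 1840.5, 2183 and 1748. The groups did not overlap, and the log2 fold change was 0.24 (SE 0.17, limma adjusted p = 0.781) and 0.15 without cow 489215. HSF2 had 919, 955.5 and 969 against 829, 1009 and 808.5, overlapping groups with a log2 fold change of -0.11 (-0.21 without cow 489215). Both are messenger levels, and HSF activity was not measured.

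Marker lists for cell types of the oviduct wall moved in the same libraries. Of the 8 epithelial genes tested, 6 had a log2 fold change above 0 and 2 (CLDN4 and ELF3) below 0 (SF/SCL over LF/LCL). EPCAM, KRT8 and KRT18 were higher in SF/SCL at an unadjusted limma p under 0.05 (4.19% of all genes were). OVGP1, the oviduct-specific glycoprotein of secretory cells, was not tested because its mean did not exceed its SD, with 287, 1782 and 1949.9 in LF/LCL and 271794, 729.6 and 325158 in SF/SCL. Its values were thus highest in cows 856 and 97 and low in cow 489215. PAX8 had the same order, with 663, 503 and 539 against 1441, 469 and 1437. The list did not share it, since 5 of the 8 tested (EPCAM, KRT8, KRT19, CLDN3 and CLDN4) were highest in cow 489215. The summed list was 44286, 34568 and 30207 against 318796, 67833 and 378546 with OVGP1, and 43999, 32785 and 28257 against 47003, 67103 and 53388 without it. Divided by the sum without OVGP1, a scale chosen after the data had been seen, 0 of the 8 members of lowest p still had non-overlapping groups (0.273% of all genes were then higher in all SF/SCL cows and 36.1% lower). HSPA8 was 126%, 153% and 161% of the list in LF/LCL and 152%, 127% and 155% in SF/SCL, and HSPA1A was 22.4%, 25.8% and 34.7% against 49.2%, 18.7% and 59.9%. On this scale the HSPA8 values of both groups mixed, and HSPA1A stayed high in cows 856 and 97 and was lowest in cow 489215. Divided by the smooth muscle sum, 3 of the 8 kept non-overlapping groups (HSPA8, HSP90AA1 and DNAJA1), beside 17.6% of all genes higher in SF/SCL, on a sum whose genes moved unequally in cow 489215.

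Immediate early genes, which respond to handling of tissue, summed to 16178 to 22024 in LF/LCL and to 20001, 30419 and 22464 in SF/SCL, and 3 of the 14 (8.66% of all genes) had an unadjusted p under 0.05, DUSP1 higher and EGR2 and EGR3 lower in SF/SCL. Genes of fibroblasts were lower in SF/SCL for 7 of 7 tested, 4 of them at an unadjusted p under 0.05 (4.48% of all genes were lower in SF/SCL at that level), with sums of 82460 to 110306 against 51556, 79576 and 51162. Leukocyte sums were 2410.0 to 4218 against 3438, 2869 and 3217, and those of erythrocyte genes 5 to 12 against 10, 25 and 13. The genes listed for mesothelium did not move together. MSLN (808, 873 and 1871 against 17589.6, 2299 and 18098) and WT1 (1269, 1302 and 1180.5 against 8611, 1037 and 7984) were far higher in cows 856 and 97, while LRRN4 (283, 412 and 175 against 3.8, 5.3 and 16.3) and BNC1 (68.0, 97.6 and 73.8 against 23.5 or less) were lower in every SF/SCL cow. The part of these cells in the differences of the heat shock genes was not tested.

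**Figure D4:**
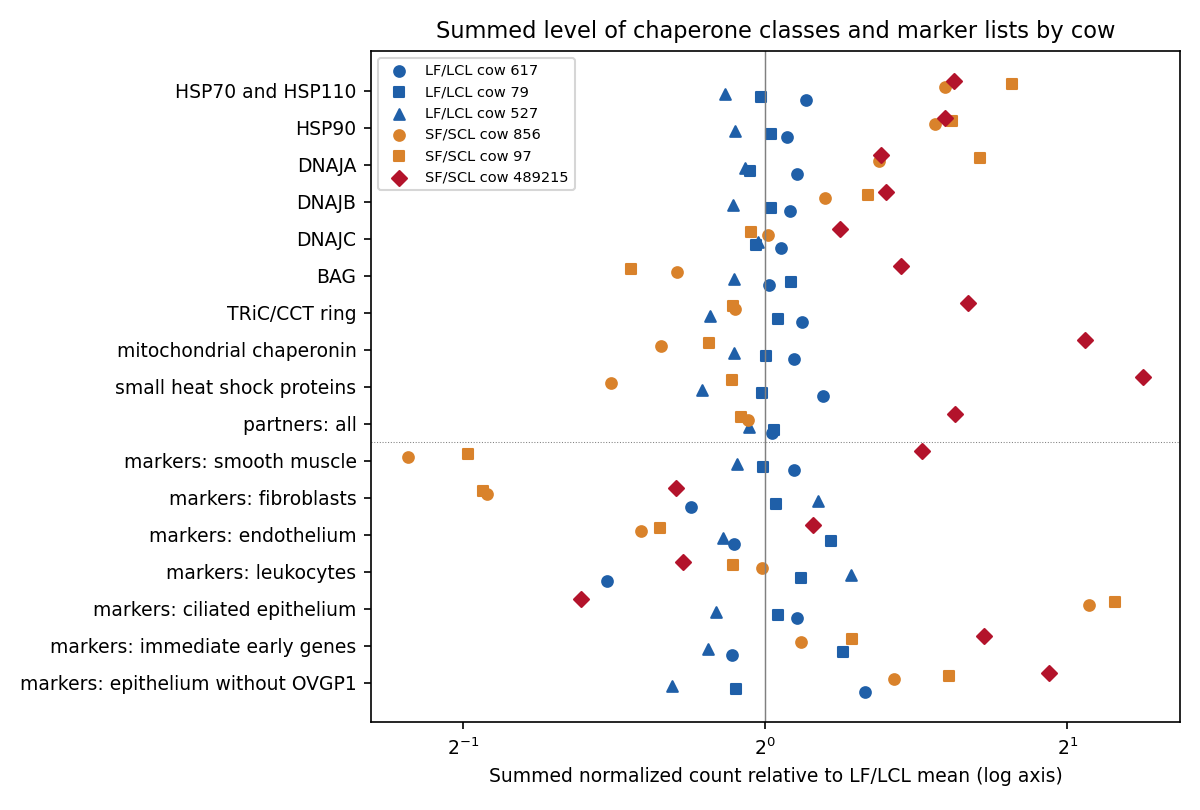
Summed normalized count of each chaperone class, the co-chaperone list and marker lists, divided by the mean of the 3 LF/LCL cows (log axis, 1 point per cow). The epithelial list is shown without OVGP1, and the mesothelium and erythrocyte lists are not shown. For HSP70 and HSP110 (130741 to 152393 against 79006 to 95066) and HSP90 (68157 to 70855 against 43069 to 48547) the SF/SCL cows lie together above LF/LCL, while for the small heat shock proteins cow 489215 lies above the LF/LCL cows. The smooth muscle sum, in which ACTA2 and TAGLN weigh most, does not stand for each gene of its list. The same holds for the sum of ciliated epithelium.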

How the data were processed

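RNA of isthmus tissue from 6 cows, 3 per group, was sequenced by the authors as poly(A) libraries with 1 library per cow. Per the labels and the methods of the study, reads were aligned with TopHat2 2.0.8 and Bowtie2 2.1.0 to the bovine genome, and uniquely mapped reads per Ensembl gene were counted with HTSeq 0.5.4p2. The deposited signal values are these read counts divided by a DESeq 1.12.1 size factor per library, and the use of strand in counting is not given in the sources used here. Whole reads were recovered for 100% of values (within 0.01 of a whole number), and totals were 23899117 to 34193164 reads, so that counting error is small for all but the lowest genes.

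The test was limma 3.58.1 (R 4.3.3; lmFit, eBayes with trend and robust, 2-sided) on log2(value + 1), without covariates, for the 15387 genes whose mean over the 6 libraries exceeded both 5 and the SD, with Benjamini-Hochberg adjustment over all of them at 0.05. A log2 fold change on this scale understates that of low genes. The 95% intervals come from the same fit. On the recovered reads, edgeR 4.0.16 quasi-likelihood called 0 genes (1338 at an unadjusted p under 0.05) and DESeq2 1.42.0 called 416. Other alternatives were TMM rescaling, pseudocounts of 0.5 and 5, filters on low values, and leaving out each cow. Tables used pandas 2.3.3, scipy 1.17.1 and numpy 2.4.6 in Python 3.11.15, and plots matplotlib 3.10.9. The limma step was tested on simulated data first.

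Named genes were, in each class, up to 5 members of lowest p under 0.05 and the 2 of highest mean, all HSP90, mitochondrial chaperonin and TRiC/CCT members, those the study lists as different, the 5 that shifted most without cow 489215, members not tested, HSF1, HSF2 and 6 partner genes of lowest p. A single partner gene of these is not reported here. Others were chosen after their values were seen. Members, partner genes and marker lists were chosen with earlier results of these data known. Symbols are those of the table, and 74 of the 79 are in a RefSeq gene table of another assembly, used only for gene order. No positions or sequences are given. Cows of a group were separate animals.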

Additional observations from a re-analysis of the deposited data

How the results depend on the processing

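Past the adjusted limma threshold were 0 members, and DESeq2 gave 5. With 1 cow left out in turn this count ran from 0 to 15, that of members at an unadjusted p under 0.05 (8) from 3 to 23, of those higher in SF/SCL (8) from 3 to 13, of non-overlapping members (14) from 17 to 37, and of partner genes (3) from 1 to 14. The highest of each came without cow 489215, and without LF/LCL cow 79 the first of these p counts was 3. Without cow 489215, 18.2% of all genes passed the adjusted limma threshold and 33.9% had an unadjusted p under 0.05. For the other cows, shares of all genes are not given. Leaving out a cow can only keep or raise the non-overlap of a gene still tested, so the rise of that count is not a result about the members. The median log2 fold change (0.161) ran from 0.038 without cow 489215 to 0.245 without cow 856. DESeq2 gave 5 partner genes at an unadjusted p under 0.05, where 11.5% of all genes had such a p, and 0 past the adjusted threshold. Division by the epithelial list left 0 of the 8 members with non-overlapping groups, where 0.273% of all genes were higher in SF/SCL without overlap. That sum was itself higher in every SF/SCL cow (47003 to 67103 against 28257 to 43999), so the 0 is not particular to the members. Division by the smooth muscle list left 3, beside 17.6% of all genes. At an unadjusted p under 0.05, DESeq2 and edgeR with TMM gave 11 members, edgeR with DESeq2 size factors 10 and TMM rescaling 9.

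Of 39 named genes, 24 kept their sign in every alternative. CCT3 turned to -0.01 under TMM rescaling, and HSPB6 to 0.17 in edgeR with TMM and 0.21 in edgeR with DESeq2 size factors and in DESeq2. With 1 cow left out in turn, 15 changed sign, with these ranges of the log2 fold change: CCT2 -0.18 to 0.25, CCT3 -0.29 to 0.18, CCT4 -0.00 to 0.26, CCT6B -0.16 to 0.31, CCT8 -0.18 to 0.37, TCP1 -0.13 to 0.44, HSPD1 -0.08 to 0.13, HSPE1 -0.38 to 0.54, HSPA4L -0.15 to 1.57, HSPB1 -0.45 to 0.47, HSPB6 -0.62 to 0.40, DNAJA2 -0.08 to 0.25, DNAJC5 -1.0 to 0.18, DNAJC13 -0.07 to 0.02 and DNAJC14 -0.10 to 0.06. Most turned without cow 489215, HSPA4L and CCT6B without the cows in which they were high, and the cause was not tested.

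No paired analysis was possible because each cow gave 1 isthmus library and no cow number is shared between the groups. With 3 cows per group, the p-values set the group difference against the spread between these cows, which limma moderates over all genes tested. The cows were selected from the extremes of the study, so the p-values do not describe its groups as a whole. Near-identical copies (HSPA1A, HSPE1) and neighbours (HSPB2, CRYAB) cannot be separated with certainty, and the composition of the tissue in each cow was not measured.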
